A study of Mus musculus with 12 samples.

Results

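The collagen genes are those whose symbol in the platform's probe table has the form Col, a number, a and a number. The rule found 50 probes for 44 genes among the 19084 genes with a named probe, and for the 5 genes with more than 1 probe the brightest was kept. The genes were sorted by the structure their chains form, from general knowledge of the family, into 11 fibrillar, 6 basement membrane (type IV) and 27 other collagens. RNA of male C57BL/6 mouse liver was measured on 12 single-colour arrays, 3 per group, in a study whose title asks about flavonoids of Citrus (PTFC) in fatty liver disease.

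PTFC mice ate a high-fat diet for 24 weeks and were dosed by stomach tube with 50 mg of PTFC per kg and day for the last 18 of them, after 6 weeks of the diet alone. HFD24 mice ate the high-fat diet for 24 weeks, HFD16 mice for 16 weeks, and ND mice a normal diet for 24 weeks. The normal and high-fat diet groups were given saline in place of PTFC. The high-fat diet held 36.1% fat, 42.3% carbohydrate and 21.6% protein with 2% cholesterol added. The normal diet held 12.3% fat, 66.2% carbohydrate and 21.5% protein. Mice of all groups were fasted for 12 h. PTFC and HFD24 mice were 31 to 33 weeks old, HFD16 mice 23 to 25 weeks, and ND mice 31 to 33 weeks for replicate 1 and 30 to 32 weeks for replicates 2 and 3, so age differs wherever HFD16 is compared. The labels describe 6 mice per group and give each array a code of its own, without saying that each is a separate mouse, so the p-values measure the spread between these arrays, part of which may be technical. The age ranges of the ND arrays differ between replicates but overlap, so they do not settle whether these arrays are of separate mice.

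Collagens are secreted proteins of 3 chains wound into a triple helix, and they give tissues their scaffold. Fibrillar collagens of types I, III and V build the fibres that accumulate in scarred liver, type IV collagen forms the sheet of basement membranes, and the other types decorate fibrils, form fine filaments or span the cell membrane. In liver the fibrillar chains come mainly from hepatic stellate cells and portal fibroblasts, which become matrix-producing myofibroblasts after injury.

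Levels are quantile-normalized log2(intensity + 1) values of 1 probe per gene, and a difference is on that scale. For dim genes its size depends on the added 1 and on background. Array medians of the deposited intensity lay between 249 and 408. Of the 44 collagen genes, 15 lay in the dimmest 25% of all genes by mean level, under 6.84. Hepatocyte markers summed to between 1.34e+06 and 1.80e+06 in deposited intensity on every array, and all 7 of those measured lay above that limit. In liver tissue as a whole, fewer cells of a type and less RNA per cell cannot be told apart. A gene passed when its limma p, Benjamini-Hochberg adjusted across all genes, was under 0.05.

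The 250 bases before the annotated start of Col1a2 and Col3a1 are shown because these genes had the largest increases of the family in HFD24. They are RefSeq sequences of mouse build GRCm38.p6, both on the plus strand, at chr6:4505368-4505617 for Col1a2 and chr1:45311288-45311537 for Col3a1. Capitals mark 4 motifs searched on both strands, with capitals merged where matches overlap. These were CCAAT, read by the factor NF-Y, the letters TATAA, read by the TATA-binding protein, the letters GGGCGG, read by Sp1, and CAGAC, which holds the short element bound by Smad proteins of TGF-beta signalling.
Col1a2: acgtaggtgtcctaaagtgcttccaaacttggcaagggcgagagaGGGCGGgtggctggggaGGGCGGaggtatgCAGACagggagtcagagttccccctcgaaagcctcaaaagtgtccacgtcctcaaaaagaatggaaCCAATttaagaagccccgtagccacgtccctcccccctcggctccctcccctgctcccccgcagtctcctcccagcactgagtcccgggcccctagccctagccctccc
Col3a1: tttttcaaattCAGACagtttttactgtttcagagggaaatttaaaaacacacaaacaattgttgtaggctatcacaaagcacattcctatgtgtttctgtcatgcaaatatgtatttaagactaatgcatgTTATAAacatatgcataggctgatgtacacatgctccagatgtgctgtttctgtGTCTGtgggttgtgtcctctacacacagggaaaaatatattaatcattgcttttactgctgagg
The Col1a2 stretch held 1 CCAAT, 2 GGGCGG and 1 CAGAC, and the Col3a1 stretch held 2 CAGAC and a TATAA that matched both strands over the same letters. Neither stretch overlapped another annotated gene. Of all 32851 promoter stretches of this length, 42.2% held CAGAC, 33.8% CCAAT, 32.7% GGGCGG and 22.8% TATAA. Of the 35 collagen genes with an entry, 17 held CAGAC, 13 CCAAT, 21 GGGCGG and 7 TATAA. These counts are per gene, and Col6a2, Col9a1 and Col18a1, which have several stretches, counted if any stretch held the motif. The shares over all promoters are per stretch. Of the 9 collagen genes with an entry that rose in HFD24, 5 held CAGAC, 4 GGGCGG, 3 CCAAT and 1 TATAA. A match describes letters in the sequence and is not evidence of binding in these livers.

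HFD24 against ND shows the collagen genes after 24 weeks of the high-fat diet. The largest increases were in Col1a2 and Col3a1, chains of the main fibrillar collagens, followed by Col6a3, Col14a1 and Col4a1. Of the 44 genes, 10 rose and 2 fell. Of all 19084 genes 18.3% passed, 9.97% higher and 8.28% lower, against 27.3% of the collagen genes, 22.7% higher and 4.55% lower. By class, 4 of 11 fibrillar genes rose and 2 fell, 1 of 6 basement membrane genes rose, and 5 of 27 other genes rose. The median difference was 0.24 for the fibrillar genes, -0.17 for the basement membrane genes and 0.05 for the others, against -0.06 over all genes. No test compared the classes, and each held members on both sides of 0. Among the 15 collagen genes in the dimmest 25% 3 rose, where 5.64% of all genes that dim did. The HFD24 and ND arrays did not overlap in 14 collagen genes higher in HFD24 and 7 lower, where 33.6% of all genes did not overlap, 15.5% higher and 18.1% lower.

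**Figure D1:**
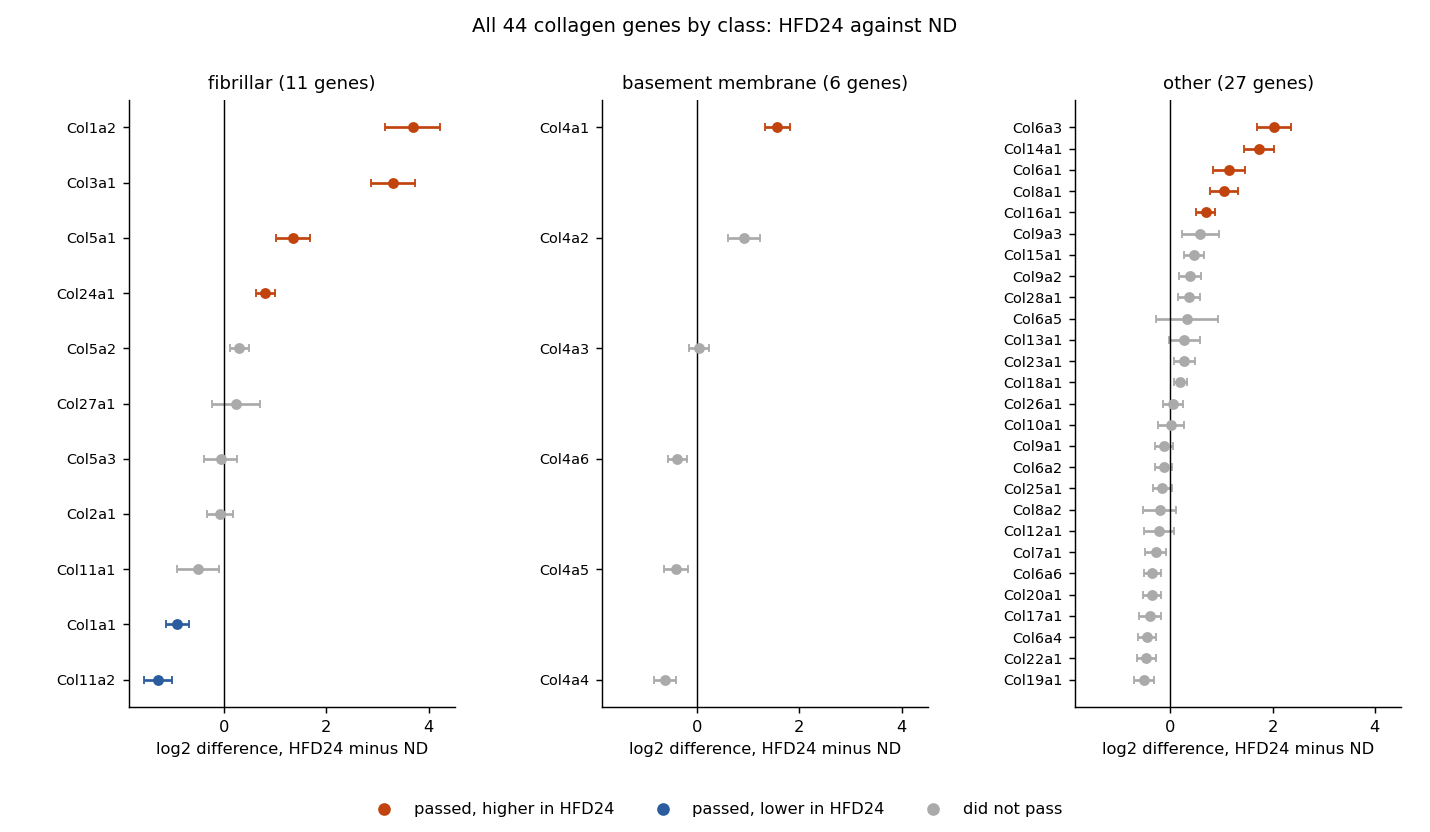
Log2 difference of HFD24 minus ND for each of the 44 collagen genes, in a panel per class (fibrillar, basement membrane, other), with SE bars and colours for genes that passed the test higher, passed lower, or did not pass. Col1a2 at 3.69 and Col3a1 at 3.31 lie farthest to the right, and Col11a2 at -1.29 and Col1a1 at -0.91 are the genes that passed on the left.

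Type I collagen, the main protein of scar fibres, is built from the chains encoded by Col1a1 and Col1a2, and type III collagen, of the finer reticular fibres, from Col3a1 alone. Col1a2 read 9.17, 9.67 and 9.12 on the HFD24 arrays, against 5.17, 5.52 and 6.20 on the ND arrays. Col3a1 read 7.88, 7.71 and 7.26 in HFD24, against 4.56, 4.06 and 4.30 in ND. All HFD24 arrays lay above all ND arrays for both genes. Col1a2 was 12.9-fold higher (log2 3.69 ± 0.54, SE, n = 3 per group, limma adjusted p = 0.00111), and Col3a1 9.92-fold higher (log2 3.31 ± 0.43, limma adjusted p = 0.000646). Both were dim in ND. Col3a1 had a deposited intensity of 18.5 to 29.3 and Col1a2 of 46.9 to 68.0 on the ND arrays, below those arrays' 25th percentiles of 69.2 to 91.2, so the folds are least certain on that side. Over the alternative settings, the log2 difference ran from 2.16 to 3.48 for Col3a1 and from 2.45 to 3.99 for Col1a2.

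Type V collagen, which starts fibrils and sets their width, has chains from Col5a1, Col5a2 and Col5a3. Col5a1 read 9.13, 8.26 and 9.05 in HFD24, against 7.07, 7.67 and 7.65 in ND, and was 2.55-fold higher (log2 1.35 ± 0.33, limma adjusted p = 0.0138). The groups did not overlap, though the second HFD24 array lay nearer to ND than the other two did. Its partner Col5a2 read 7.53, 7.76 and 7.31 in HFD24 against 7.37, 7.21 and 7.11 in ND, and did not pass (log2 0.31 ± 0.18, limma adjusted p = 0.253). Col5a3, bright on all arrays, did not pass either (log2 -0.06 ± 0.32).

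Among the minor fibrillar collagens, Col24a1 read 6.85, 6.45 and 6.63 in HFD24, against 5.51, 5.96 and 6.04 in ND, and was 1.75-fold higher (log2 0.81 ± 0.19, limma adjusted p = 0.0113). A second Col24a1 probe gave 0.91 ± 0.25. Col11a2, a chain of type XI collagen, best known from cartilage fibrils, read 9.50, 10.29 and 10.33 in HFD24, against 11.70, 11.56 and 10.73 in ND. It was 2.45-fold lower in HFD24 (log2 -1.29 ± 0.28, limma adjusted p = 0.00719), with no overlap between the groups. Its partner Col11a1 (log2 -0.50 ± 0.40) and the cartilage collagen Col2a1 (log2 -0.07 ± 0.26) did not pass. No member of a list of 6 cartilage and bone genes passed in this comparison.

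Col1a1, the other chain of type I collagen, went the opposite way from Col1a2. It read 7.16, 6.71 and 7.26 in HFD24, against 8.00, 7.59 and 8.26 in ND, with no overlap, and was 1.88-fold lower in HFD24 (log2 -0.91 ± 0.22, limma adjusted p = 0.0129). Within each array, Col1a1 minus Col1a2 was -2.01, -2.96 and -1.86 in HFD24, against 2.83, 2.07 and 2.06 in ND. Signals of different probes cannot be set against each other as amounts, so the sign of this value says nothing on which chain is more abundant, and only its shift between groups is read. The shift in HFD24 relative to ND was -4.60 on the log2 scale (exact two-sided permutation p = 0.1, the smallest that 3 against 3 arrays allow). It ran from -4.80 to -4.25 when any 1 array was left out and from -4.60 to -3.60 over the other settings, where -3.60 was the value with the scaling step of each array (the unit its deposited values are multiples of) as a covariate, a setting chosen for this value after seeing the data. The platform table gave 1 probe for each of these genes, so no other probe could be set beside the Col1a1 value. The Col1a1 probe was fairly dim, at percentile 30.4 of mean level over all genes. Its deposited intensity was 96.0 to 151 in HFD24, where array medians were 249 to 338. In ND it was 223 to 297, where array medians were 300 to 379. Probe sequences were not available, so what this probe measures could not be checked.

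**Figure D2:**
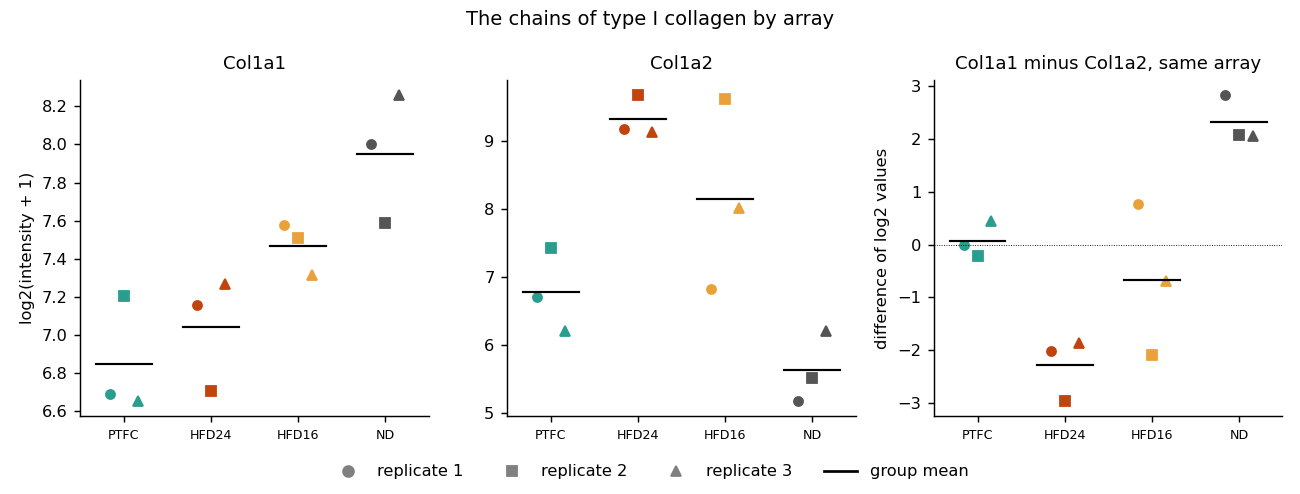
Log2(intensity + 1) of Col1a1 (left) and Col1a2 (middle) and their difference within each array (right), by group from PTFC to ND. Points are arrays, with a symbol per replicate number, and lines are group means. The difference is lowest in HFD24 (-2.96 to -1.86) and highest in ND (2.06 to 2.83), with the PTFC arrays between -0.21 and 0.45.

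In the basement membrane class, Col4a1 and Col4a2 encode the chains found in nearly all basement membranes and lie beside each other in the genome. Col4a1 read 12.34, 12.40 and 12.08 in HFD24, against 10.62, 10.78 and 10.71 in ND. The HFD24 arrays lay well above the ND arrays, and Col4a1 was 2.97-fold higher (log2 1.57 ± 0.25, limma adjusted p = 0.00156). Col4a2 read 13.28, 13.07 and 13.32 in HFD24, against 12.73, 12.50 and 11.68 in ND. Its arrays did not overlap either, but its ND arrays were wide apart, and it did not pass (log2 0.92 ± 0.31, limma adjusted p = 0.0559). The chains of specialised basement membranes did not pass, with log2 differences of 0.04 for Col4a3, -0.63 for Col4a4, -0.41 for Col4a5 and -0.38 for Col4a6. Dimmer probes of Col4a4 gave 0.09 and 0.43, in the other direction from its kept probe. Their mean deposited intensities of 21.3 and 13.2, against 741 for the kept probe, are near background.

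Type VI collagen forms beaded filaments around cells from the chains of Col6a1, Col6a2 and 1 more, such as that of Col6a3. Col6a3 read 10.17, 10.16 and 10.18 in HFD24, against 8.08, 8.30 and 8.06 in ND, and was 4.06-fold higher (log2 2.02 ± 0.33, limma adjusted p = 0.00188). Col6a1 read 11.89, 11.72 and 12.31 in HFD24, against 10.92, 11.04 and 10.52 in ND, and was 2.22-fold higher (log2 1.15 ± 0.32, limma adjusted p = 0.0244). Col6a2, which neighbours Col6a1 in the genome, read 9.28, 9.52 and 9.79 in HFD24, against 9.72, 9.59 and 9.67 in ND, and did not pass (log2 -0.13 ± 0.17). The ranges of Col6a2 overlapped, whereas those of Col6a1 and Col6a3 did not. Col6a4, Col6a5 and Col6a6, which encode chains that can take the place of that of Col6a3, did not pass.

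Of the 9 collagens that attach to fibrils, known as FACIT collagens, 2 rose. Col14a1, found with type I fibrils in soft tissue, read 13.23, 13.15 and 12.84 in HFD24, against 11.12, 11.69 and 11.18 in ND, and was 3.35-fold higher (log2 1.74 ± 0.29, limma adjusted p = 0.00211). Col16a1 read 9.34, 9.72 and 9.90 in HFD24, against 8.85, 8.86 and 9.18 in ND, and was 1.61-fold higher (log2 0.69 ± 0.18, limma adjusted p = 0.0173). The Col16a1 groups were close, with the lowest HFD24 array just above the highest ND array. Col8a1, of the network-forming collagen of vessel walls, read 7.60, 6.49 and 6.39 in HFD24, against 5.79, 5.78 and 5.73 in ND, and was 2.08-fold higher (log2 1.06 ± 0.27, limma adjusted p = 0.0176). Its first HFD24 array stood above the other two. The other FACIT collagens, Col9a1, Col9a2, Col9a3, Col12a1, Col19a1, Col20a1 and Col22a1, did not pass, with differences from -0.51 for Col19a1 to 0.59 for Col9a3. None of the 4 transmembrane collagens (Col13a1, Col17a1, Col23a1 and Col25a1) passed, nor did Col7a1 of anchoring fibrils (log2 -0.28 ± 0.21). Of the collagens that carry endostatin-like ends, Col15a1 (log2 0.47 ± 0.20) and Col18a1 (log2 0.20 ± 0.12) did not pass. Over the 32 collagen genes that did not pass, differences ran from -0.63 for Col4a4 to 0.92 for Col4a2, and Col8a2, Col10a1, Col26a1, Col27a1 and Col28a1 lay within that range.

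**Figure D3:**
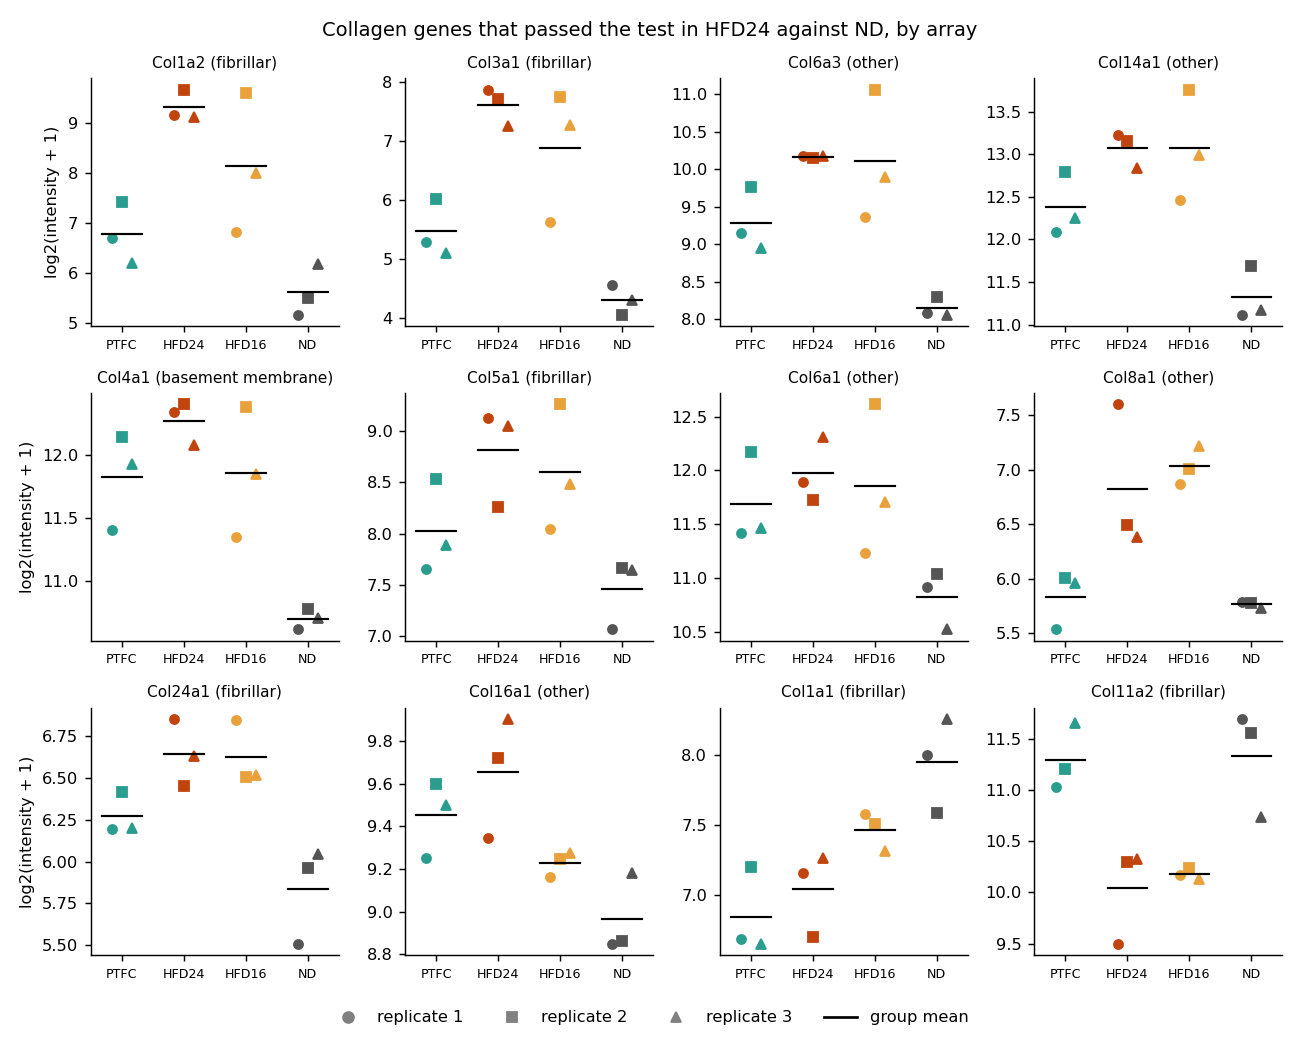
Log2(intensity + 1) on each array for the 12 collagen genes that passed in HFD24 against ND, a panel per gene, with groups from PTFC to ND, a symbol per replicate number and a line at each group mean. In every panel the HFD24 and ND points do not overlap, and the second PTFC array is the highest of its group for the 10 genes that rose.

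These calls did not depend equally on each array. In HFD24 against ND 6 of the 12 collagen genes passed whichever array was left out, namely Col1a2, Col3a1, Col11a2, Col4a1, Col6a3 and Col14a1, and without the first ND array only these passed. Of the other 6, Col24a1 was lost only without that array, and Col1a1 also without the second HFD24 array, Col5a1 without the first HFD24 array and Col8a1 without the second ND array. Col6a1 and Col16a1 were each lost without any of 4 arrays. The deposited values of each array are whole multiples of a step, whose mean was 0.976 ± 0.137 (SD, n = 3) in HFD24 and 1.31 ± 0.133 in ND. With the step as a covariate, only Col3a1 passed (log2 2.78, limma adjusted p = 0.0356). Col1a2 was at 2.45 (limma adjusted p = 0.0516) and Col14a1 at 1.15, while Col5a1 was at 0.39 and Col6a1 at 0.40. Col8a1 at 1.04, Col11a2 at -1.08 and Col1a1 at -1.16 did not pass, and were at 1.06, -1.29 and -0.91 without the covariate. The step and the diet cannot be told apart fully, since ND arrays had the larger steps. On the deposited scale, without normalization between arrays, 7 collagen genes passed higher and 5 lower, and the share of higher genes among all calls was 41.3% in place of 54.6%.

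PTFC against HFD24 shows the collagen genes when PTFC was given on the same diet. Col1a2, Col3a1 and Col8a1 fell and Col11a2 rose, 4 of 44 genes or 9.09%, against 6.00% of all genes, 2.96% higher and 3.04% lower. This comparison shares the HFD24 arrays with that of HFD24 and ND, so an array that is high in HFD24 pushes them in opposite directions. Of the fibrillar genes 2 fell and 1 rose, of the basement membrane genes none passed, and of the others 1 fell. At an unadjusted limma p under 0.05, 1 of 6 basement membrane genes was higher and none lower, and 1 of 11 fibrillar genes was higher and 4 lower, against 12.1% of all genes higher and 12.3% lower. The arrays did not overlap in 7 collagen genes higher in PTFC and 7 lower, against 31.1% of all genes, 15.9% higher and 15.2% lower.

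Col1a2 read 6.71, 7.42 and 6.20 in PTFC, against 9.17, 9.67 and 9.12 in HFD24, and was 5.83-fold lower (log2 -2.54 ± 0.54, limma adjusted p = 0.0238). Col3a1 read 5.28, 6.02 and 5.11 in PTFC, against 7.88, 7.71 and 7.26 in HFD24, and was 4.42-fold lower (log2 -2.14 ± 0.43, limma adjusted p = 0.0230). Neither gene overlapped between the groups. Col8a1 read 5.54, 6.01 and 5.96 in PTFC, against 7.60, 6.49 and 6.39 in HFD24, and was 1.99-fold lower (log2 -0.99 ± 0.27, limma adjusted p = 0.0491). Col11a2 read 11.03, 11.21 and 11.66 in PTFC, against 9.50, 10.29 and 10.33 in HFD24, and was 2.39-fold higher (log2 1.26 ± 0.28, limma adjusted p = 0.0274).

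The other genes that rose in HFD24 did not pass here, though Col5a1 (log2 -0.87, limma adjusted p = 0.0215) and Col6a3 (-0.95, adjusted p = 0.0346) passed with the scaling step as a covariate. Col6a3 read 9.15, 9.76 and 8.95 in PTFC, all below the HFD24 arrays, and differed by -0.88 ± 0.33 (limma adjusted p = 0.126). Col5a1 (log2 -0.78 ± 0.33), Col14a1 (-0.69 ± 0.29), Col4a1 (-0.45 ± 0.25), Col24a1 (-0.38 ± 0.19), Col6a1 (-0.29 ± 0.32) and Col16a1 (-0.20 ± 0.18) had adjusted p of 0.162 or more by limma. Col1a1 read 6.69, 7.21 and 6.65 in PTFC, overlapping HFD24 (log2 -0.19 ± 0.22, limma adjusted p = 0.634). Among genes that had not passed in HFD24 against ND, Col27a1, a minor fibrillar collagen, had the largest difference (-1.18 ± 0.47, limma adjusted p = 0.138), with 7.91, 6.73 and 7.42 in PTFC overlapping 7.78, 7.99 and 9.83 in HFD24. The epithelial transmembrane collagen Col17a1 (0.65 ± 0.21), Col19a1 (0.58 ± 0.20), Col22a1 (0.56 ± 0.18) and Col6a4 (0.54 ± 0.17) were the highest of those that did not pass. All of these passed higher with median centring and on the deposited scale.

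Col1a1 minus Col1a2 within an array was -0.02, -0.21 and 0.45 in PTFC, higher than in HFD24 by 2.35 (exact two-sided permutation p = 0.1, the smallest possible). The second PTFC array was the highest of its group in all 10 genes that rose in HFD24, as it was in 45.3% of all genes that rose in HFD24 and 32.6% of all genes.

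**Figure D4:**
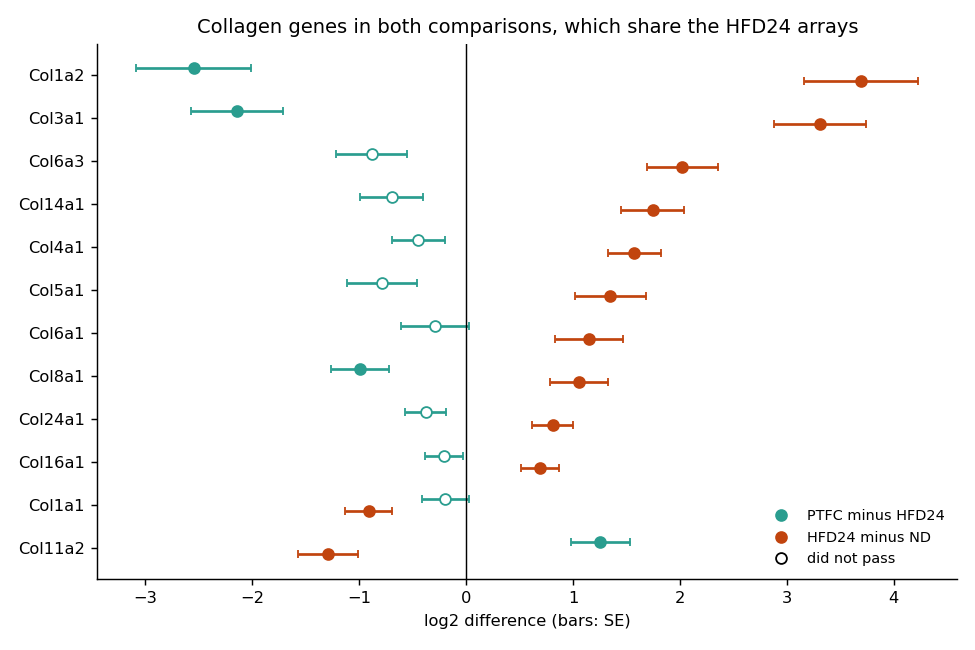
Log2 differences with SE bars for the 12 collagen genes that passed in HFD24 against ND, shown for PTFC minus HFD24 and for HFD24 minus ND, which share the HFD24 arrays. Filled points passed the test and open points did not. Col1a2, Col3a1 and Col8a1 are filled below 0 for PTFC and Col11a2 is filled above 0.

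The 4 calls of PTFC against HFD24 did not hold whichever array was left out. None passed without the first or the second HFD24 array or without the third PTFC array, and at most 5 collagen genes passed when any other array was left out. Col1a2 and Col3a1 did not pass without the first PTFC array either, nor Col11a2 without the second, and Col8a1 passed in 3 of the 12 fits that left out an array. On the deposited scale 7 collagen genes passed higher and 2 lower, where the median of all genes was shifted by 0.24 and 90.5% of all calls were higher in place of 49.3%. Col1a2 and Col3a1 passed lower and Col11a2 higher on that scale too, while Col8a1 did not pass.

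PTFC against ND asks what remained different from the normal diet. Col4a1 read 11.40, 12.15 and 11.93 in PTFC, against 10.62, 10.78 and 10.71 in ND, and was 2.18-fold higher (log2 1.13 ± 0.25, limma adjusted p = 0.0344). Col1a1 read 6.69, 7.21 and 6.65 in PTFC, against 8.00, 7.59 and 8.26 in ND, and was 2.15-fold lower (log2 -1.10 ± 0.22, limma adjusted p = 0.0237). These were the only collagen genes that passed, 4.55% of 44, against 2.33% of all genes, 1.04% higher and 1.29% lower. The arrays did not overlap in 9 collagen genes higher in PTFC and 1 lower, against 22.1% of all genes, 10.0% higher and 12.1% lower. Col3a1 (log2 1.17 ± 0.43, limma adjusted p = 0.175), Col1a2 (1.15 ± 0.54, adjusted p = 0.296), Col6a3 (1.14 ± 0.33, adjusted p = 0.0919) and Col6a1 (0.86 ± 0.32, adjusted p = 0.174) did not pass, though no PTFC array of these genes was as low as any ND array, for Col1a2 only just. Col1a1 minus Col1a2 was lower in PTFC than in ND by a difference of -2.25 (exact two-sided permutation p = 0.1), which was -2.45 to -2.01 with 1 array left out and -1.16 with the scaling step as a covariate. With that covariate neither call held, with Col1a1 at -1.37 and Col4a1 at 0.73. Nor did either call hold without the first ND array or the third PTFC array. Col1a1 was also lost without the first PTFC array, and Col4a1 without ND replicate 2 or 3, the third HFD16 array or the second PTFC array.

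HFD16 against ND shows the collagen genes after 16 weeks of the diet, in younger mice than the ND mice. Of the 44 genes 9 rose and 5 fell, or 31.8%, against 18.1% of all genes, 10.0% higher and 8.11% lower. Of the fibrillar genes 4 rose and 1 fell, of the basement membrane genes 1 rose and 2 fell, and of the others 4 rose and 2 fell. The HFD16 and ND arrays did not overlap in 11 collagen genes higher in HFD16 and 12 lower, against 35.8% of all genes, 16.9% higher and 18.9% lower. This comparison shares the ND arrays with that of HFD24 and ND. Col1a2 read 6.82, 9.61 and 8.01 in HFD16, all above ND, and was 5.73-fold higher (log2 2.52 ± 0.54, limma adjusted p = 0.00865). Col3a1 read 5.63, 7.75 and 7.28 in HFD16 and exceeded ND by 5.99-fold (log2 2.58 ± 0.43, limma adjusted p = 0.00306). For both genes the first HFD16 array lay nearest to ND and the second highest.

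Col6a3 read 9.37, 11.06 and 9.89 in HFD16 and exceeded ND by 3.89-fold (log2 1.96 ± 0.33, limma adjusted p = 0.00332). Col14a1 was 3.34-fold higher (log2 1.74 ± 0.29), Col8a1 2.40-fold (1.26 ± 0.27), Col4a1 2.23-fold (1.16 ± 0.25), Col5a1 2.19-fold (1.13 ± 0.33), Col6a1 2.04-fold (1.03 ± 0.32) and Col24a1 1.73-fold (0.79 ± 0.19). Col11a2 was 2.21-fold lower (log2 -1.15 ± 0.28, limma adjusted p = 0.0151). Col4a4 read 9.02, 8.66 and 8.93 in HFD16, against 10.05, 9.90 and 9.76 in ND, and was 2.05-fold lower (log2 -1.04 ± 0.22, limma adjusted p = 0.00814). Col4a5, of the same specialised type IV network, read 8.13, 8.07 and 8.14 in HFD16, against 9.22, 9.04 and 8.84 in ND (log2 -0.92 ± 0.24, limma adjusted p = 0.0192). Col6a6 (log2 -0.71 ± 0.16) and the FACIT collagen Col19a1 (-0.78 ± 0.20) were lower as well.

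The fall of Col4a4, Col4a5 and Col6a6 rested on the kept probes. Other probes gave -0.07 and 0.16 for Col4a4, -0.02 for Col4a5 and 0.48 for Col6a6, and none of these passed. The other Col4a4 probes had mean deposited intensities of 21.3 and 13.2, against 741 for the kept probe. That is near background, where a fall could hardly show. The means were 224 against 422 for Col4a5 and 118 against 275 for Col6a6. Col1a1 read 7.58, 7.51 and 7.32 in HFD16 and did not pass against ND (log2 -0.48 ± 0.22, limma adjusted p = 0.141). Its difference from Col1a2 within an array was 0.76, -2.10 and -0.69 in HFD16, lower than in ND by a difference of -3.00 (exact two-sided permutation p = 0.1). That difference was -3.70 to -2.27 with 1 array left out and -1.84 with the scaling step as a covariate.

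The spread within HFD16 was wide. The second HFD16 array was the highest of its group in 7 of the 10 genes that rose in HFD24 and the first was the lowest in 9, against 63.3% and 66.1% of all genes that rose in HFD24. The third HFD16 array had a summed deposited intensity of 6429 for 6 skeletal muscle markers, against 259 to 611 on the other 11 arrays, and without it 9 of the 14 collagen genes passed, in comparison with 7 without the first ND array. Col6a5 read 4.21 on the third HFD16 array, against 1.52 and 1.78 on the other HFD16 arrays. It also read 4.10 on the second PTFC array, whose muscle sum was 513. Col6a5 was near background, at percentile 0.38 of mean level, with deposited intensities of 14.7 and 18.8 on those arrays. The part of muscle RNA in the collagen values was not tested. Col1a2, Col3a1, Col4a1, Col4a4, Col6a3, Col8a1 and Col14a1 passed whichever array was left out. With the step of each array as a covariate no collagen gene passed in HFD16 against ND, with a step of 0.921 ± 0.213 (SD, n = 3) in HFD16, against 1.31 ± 0.133 in ND. Col8a1 at 1.24 and Col6a6 at -0.72 kept their sizes and Col3a1 was at 1.96, while Col1a2 was at 1.07, Col6a3 at 1.00, Col6a1 at 0.15 and Col5a1 at 0.02 on the log2 scale. On the deposited scale 6 collagen genes passed higher and 7 lower, and 34.4% of all calls were higher in place of 55.3%.

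HFD24 against HFD16 addresses the last 8 weeks of the diet, with age moving alongside. No collagen gene passed, against 0.0367% of all genes, 0.0157% higher and 0.021% lower. The arrays did not overlap in 3 collagen genes higher in HFD24 and 5 lower, against 16.4% of all genes, 6.25% higher and 10.1% lower. By limma, 4 collagen genes (of 44) were higher and 1 lower at an unadjusted p under 0.05, against 4.34% of all genes higher and 5.43% lower. Col1a2 had the largest difference (log2 1.17 ± 0.54, limma adjusted p = 0.502), and Col3a1 differed by 0.73 ± 0.43. The HFD24 arrays of both genes lay within or close to the range of HFD16, whose arrays spread widely. Col1a1 minus Col1a2 was lower in HFD24 by a difference of -1.60 (exact two-sided permutation p = 0.3), which became -0.88 without the first HFD16 array.

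Genes that make, join and break collagen were read from lists chosen with results of these data known, and their counts are set beside the backgrounds above. Of 17 measured enzymes and chaperones of collagen folding, 3 rose in HFD24 against ND and none fell. Serpinh1, the chaperone HSP47, rose by 2.25 ± 0.37, Crtap, of the prolyl 3-hydroxylation complex, by 1.29 ± 0.26, and Colgalt1, which adds galactose to hydroxylysine, by 0.71 ± 0.18 on the log2 scale. Of 13 genes of propeptide cleavage and crosslinking, 5 rose and 1 fell. Loxl2, a lysyl oxidase that crosslinks collagen, rose (log2 1.83 ± 0.26), as did Pcolce, which speeds cleavage of the type I C-propeptide (2.02 ± 0.48), and the crosslinking transglutaminase Tgm2 (0.65 ± 0.16). Loxl4, of the same family as Loxl2, fell (-1.37 ± 0.21).

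Of 11 genes of collagen breakdown and its inhibitors 4 rose. Timp1, an inhibitor of matrix metalloproteinases, rose by 6.26 ± 0.65 on the log2 scale, and the metalloproteinases Mmp2 (1.27 ± 0.37), Mmp8 (0.86 ± 0.26) and Mmp9 (0.82 ± 0.26) rose as well. Of 10 collagen receptors 4 rose, namely the receptor kinases Ddr1 (log2 1.89 ± 0.26) and Ddr2 (1.19 ± 0.21), the inhibitory receptor Lair1 (2.01 ± 0.42) and the endocytic receptor Mrc2 (1.10 ± 0.31). Of 13 small proteoglycans and fibril partners 7 rose, with Sparc, which binds collagen, at log2 2.44 ± 0.22, Thbs1 at 2.37 ± 0.35, Bgn at 1.35 ± 0.21 and Prelp at 1.27 ± 0.19. Their median difference was 1.17, against -0.06 over all genes. Of 15 basement membrane partners 6 rose, among them the laminin chains Lama2 (log2 1.51 ± 0.22) and Lamb1 (1.40 ± 0.19), peroxidasin Pxdn, which crosslinks type IV collagen (1.46 ± 0.25), and nidogen Nid1 (1.26 ± 0.21). Of 12 genes of TGF-beta signalling, which drives collagen transcription, Tgfb1 (log2 0.85 ± 0.19) and the co-receptor Tgfbr3 (1.04 ± 0.25) rose and Tgfb2 fell (-1.03 ± 0.29).

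Over these lists together 33 of 91 genes, or 36.3%, passed in HFD24 against ND, where 18.3% of all genes did. In PTFC against HFD24 7 of the 91, or 7.69%, passed, near the 6.00% of all genes. Timp1 fell by 3.33 ± 0.65, Loxl2 by 1.41 ± 0.26, Lair1 by 1.61 ± 0.42, Thbs1 by 1.42 ± 0.35, Hspg2, the basement membrane proteoglycan perlecan, by 1.00 ± 0.23 and Ddr2 by 0.94 ± 0.21 on the log2 scale, and Tgfb2 rose by 1.21 ± 0.29. No other gene of these lists passed. None of the 17 folding genes passed, with Serpinh1 at -1.05 ± 0.37 (limma adjusted p = 0.106).

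Markers of the cells that make collagen, and of other liver cells, were read beside the collagen genes. Of all genes, 9.97% passed higher and 8.28% lower in HFD24 against ND. In PTFC against HFD24 these shares were 2.96% and 3.04%. Of 9 hepatic stellate cell markers 4 rose in HFD24 against ND and none fell, with the retinol-storing enzyme Lrat at log2 2.24 ± 0.31, the receptor Pdgfrb at 1.65 ± 0.28, Des at 0.92 ± 0.21 and Reln at 0.89 ± 0.29. Their summed deposited intensity was 22677 to 38066 in HFD24, against 15911 to 19551 in ND, with 3 of the 9 in the dimmest 25% of genes. Of 8 portal fibroblast markers 3 rose, Thy1 (log2 1.74 ± 0.37), Cd34 (1.17 ± 0.25) and Entpd2 (0.91 ± 0.17), with sums of 12476 to 19761 in HFD24 and 8313 to 11654 in ND. Of 8 endothelial markers 5 rose, with sums of 40589 to 52814 in HFD24 and 22583 to 31867 in ND, and all 7 macrophage markers rose, with sums of 50671 to 65079 in HFD24 and 8177 to 19099 in ND. Of 5 cholangiocyte markers 2 fell, Cldn7 (log2 -1.57 ± 0.16) and Epcam (-0.60 ± 0.15), with sums of 1986 to 2992 in HFD24 and 3437 to 3861 in ND. In PTFC against HFD24, 1 of 9 stellate markers fell, Pdgfrb by 1.50 ± 0.28 on the log2 scale. Of 8 portal fibroblast markers 3 fell, Thy1 by 1.37 ± 0.37, Entpd2 by 0.97 ± 0.17 and the Hedgehog target Gli1 by 0.76 ± 0.16. No marker of either list passed higher, with the highest differences at 0.36 for the stellate and 0.59 for the portal fibroblast list. No endothelial or macrophage marker passed. The macrophage sums were nevertheless 35541 to 47954 in PTFC, all below HFD24, with a median log2 difference of -0.91 over the 7 markers. The cholangiocyte sums were 3348 to 3683 in PTFC, all above HFD24, and Cldn7 rose by 0.93 ± 0.16. Sums of 7 hepatocyte markers were 1576069 to 1795440 in PTFC and 1357742 to 1571149 in HFD24, with none of the markers passing. The stellate sums were 25495 to 37451 in PTFC and the portal fibroblast sums 12519 to 14387, each within the range of HFD24. All these sums are of deposited intensities, without normalization between arrays. The PTFC arrays were brighter as a whole, with medians of 369 to 408 against 249 to 338 in HFD24. Sums of PTFC and HFD24 therefore differ in array brightness as well as in the markers. The part of cell numbers in the collagen differences was not tested.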

How the data were processed

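Liver RNA of 12 samples was measured on 1-colour arrays. Per the labels' protocols, Trizol RNA was amplified and its aminoallyl aRNA coupled to Cy5. The authors deposited linear intensity values of 26423 probes, of which the platform table named 21876. Their background correction and array scaling are not stated in these sources. Of 317076 deposited values 291 were below 0 and were set to 0.

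Values were taken as log2(intensity + 1), quantile normalized over all probes, and the probe of highest mean was kept per gene, giving 19084 genes. The 4 group means were fitted together by limma 3.58.1 (R 4.3.3; lmFit, then contrasts.fit and eBayes with trend), two-sided, with Benjamini-Hochberg adjustment over all genes at 0.05. The fit was tested on simulated data. Col1a1 minus Col1a2 was compared with exact permutation tests. For arrays, their number limits the precision. Named collagens are those that passed in any of the 5 comparisons and the chains of types I, III, V, IV and VI. Of the lists, up to 4 members of smallest p in HFD24 against ND and up to 2 in PTFC against HFD24 are named. The members and lists were chosen with earlier results of these data known. All 44 symbols matched the RefSeq table. Alternatives were other scalings, a pseudocount of 32, a filter on dim genes, the mean of all probes, no variance trend, a replicate block, the scaling step as a covariate, and each array left out.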

Additional observations from a re-analysis of the deposited data

How the results depend on the processing

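Over the alternatives, the number of collagen genes that passed in HFD24 against ND was 12 to 16 under every setting that kept all arrays and genes except the scaling step as a covariate, which left 1, and was 10 of 29 without the dimmest 25%. It was 6 to 14 when 1 array was left out. In PTFC against HFD24 the count of 4 became 9 on the deposited scale, 7 with median centring, 2 without the dimmest 25% and 2 with the replicate block. With median centring 5 of the collagen genes were higher and 2 lower, against 3.15% of all genes higher and 5.31% lower. The count became 6 with the scaling step, which added Col5a1 and Col6a3, and ranged from 0 to 5 with 1 array left out. With a pseudocount of 32, the mean of all probes or no variance trend it was 3, each time without Col8a1. Col8a1 passed in 4 of the 19 alternatives that held it. In HFD16 against ND the count of 14 became 0 with the scaling step and 7 to 16 with 1 array left out. In PTFC against ND the count of 2 became 1 on the deposited scale, 1 with median centring, 0 with the scaling step, 3 with the replicate block and 0 to 5 with 1 array left out. In HFD24 against HFD16 it was 0 throughout. The shift of Col1a1 minus Col1a2 with the scaling step, chosen after seeing the data, was -3.60 in HFD24 against ND, -1.84 in HFD16 against ND and -1.16 in PTFC against ND, in place of -4.60, -3.00 and -2.25. The cause of these shifts was not tested, other than that leaving out genes or arrays makes the set smaller.

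Some differences that had not passed changed sign. In PTFC against HFD24, the deposited scale put Col1a1 at 0.30 in place of -0.19, Col5a2 at 0.32 in place of -0.14, Col24a1 at 0.13 in place of -0.38 and Col16a1 at 0.038 in place of -0.20. In the same comparison Col4a5 was at 0.15 before any change of setting. It was at -0.18 without the first HFD24 array and at 0.35 without the second, and its highest value over all settings was 0.51. Col6a6 in HFD24 against ND was at 0.036 as the mean of its probes in place of -0.35, and Col1a2 in PTFC against ND was at -0.21 with the scaling step in place of 1.15. No collagen gene that had passed changed sign. The replicate numbers did not pair the samples, since deviations of same-numbered arrays correlated at -0.29 to 0.17 over 18 pairs and 1 of 12 arrays correlated best with its own number. With the replicate block, 12 collagen genes passed in HFD24 against ND and 14 in HFD16 against ND, and Col11a2 and Col8a1 were lost in PTFC against HFD24. Dim probes are near background, which limits Col3a1, Col8a1 and Col24a1 and the ND side of Col1a2.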
